A study of Homo sapiens with 14 samples.

Results

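The HOX genes were examined as a family in TC-32 cells, a line of Ewing sarcoma, a bone and soft-tissue tumour driven by the fusion protein EWSR1::FLI1. The members were taken by name: 38 protein-coding HOX genes of the HOXA, HOXB, HOXC and HOXD clusters, of 19962 protein-coding genes on the autosomes and X. HOXA gave 10 members, HOXB 10, HOXC 9 and HOXD 9. All 14 libraries came from untreated TC-32 cells labelled wild type, so every value below describes 1 cell line with no treated or fusion-depleted group. Binding was mapped by CUT&RUN, in which an antibody directs a nuclease to cut and release the DNA around its target. The libraries formed sets labelled A and B, whose meaning the labels do not give, each with replicates 1 and 2. Set A held FLI1 and H3K27ac libraries, set B held FLI1, H3K9me3 and H3K27me3 libraries, and each set had its own IgG libraries as the background control. The antibody to FLI1 recognises the fusion and would also recognise FLI1 that is not fused. The labels do not say whether replicates were separate cultures.

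HOX proteins are homeodomain transcription factors that give cells their position along the body axis. Their genes lie in 4 clusters in an order that follows their expression from head to tail, with anterior paralog groups at one end, central groups between and posterior groups at the other. In many cell types Polycomb repressive complex 2 keeps silent HOX genes under broad domains of H3K27me3. H3K27ac marks active promoters and enhancers, and H3K9me3 marks heterochromatin. EWSR1::FLI1 binds through the ETS domain of FLI1, which reads a GGAA core, both as lone sites and as runs of GGAA repeats. Posterior HOXD genes have been described as expressed in Ewing sarcoma.

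The sequences under the FLI1 binding that the results turn on are given first. They are the 200 bases around summits of FLI1 regions, taken from regions of all 4 libraries. In each cluster with FLI1 at gene starts, the region touching a start with the highest mean rank of fold was taken. The region beside HOXD1, which overlapped H3K27me3 in both replicates, was added. All are the plus strand of hg38, 5′ to 3′, with each GGAA or its reverse complement TTCC in capitals.
HOXB13, chr17:48729246-48729445: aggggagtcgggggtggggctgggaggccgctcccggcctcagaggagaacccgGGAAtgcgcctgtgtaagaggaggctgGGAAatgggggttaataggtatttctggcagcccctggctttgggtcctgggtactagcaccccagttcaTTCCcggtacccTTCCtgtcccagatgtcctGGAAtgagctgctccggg
HOXC4, chr12:54018127-54018326: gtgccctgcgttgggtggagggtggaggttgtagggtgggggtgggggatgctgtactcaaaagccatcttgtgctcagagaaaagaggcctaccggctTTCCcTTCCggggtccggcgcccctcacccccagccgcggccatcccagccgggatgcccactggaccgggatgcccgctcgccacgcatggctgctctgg
HOXD11, chr2:176106844-176107043: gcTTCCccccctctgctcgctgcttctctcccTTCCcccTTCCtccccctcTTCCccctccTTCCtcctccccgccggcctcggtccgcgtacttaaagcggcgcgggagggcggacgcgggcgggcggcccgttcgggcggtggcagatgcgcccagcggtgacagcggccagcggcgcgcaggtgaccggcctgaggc
HOXD1, chr2:176187575-176187774: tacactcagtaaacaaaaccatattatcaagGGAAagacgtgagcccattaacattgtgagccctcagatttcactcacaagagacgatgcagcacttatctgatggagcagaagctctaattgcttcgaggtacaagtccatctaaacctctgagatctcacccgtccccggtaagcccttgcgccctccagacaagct
The window beside HOXB13 held 5 GGAA or TTCC, that at HOXC4 2, that at HOXD11 5 and that beside HOXD1 1. None of the 4 windows held a run of 2 or more adjoining units. The region named for HOXD11 touched the HOXD11 gene start, but its summit, from set B replicate 1, lay 1846 bases from the HOXD10 gene start. In that library the summit belonged to the region counted for HOXD10 (fold over IgG 15.5). The most significant region counted for HOXD11 there was another (17.0).

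Over all FLI1 regions shared by the 4 libraries, 5.73% of 16165 had a run of 4 or more adjoining GGAA or TTCC units within 250 bases of the summit, against 3.33% of the 30 such regions in the HOX clusters. The ETS motif CCGGAAGT, searched on both strands, was within 250 bases of the summit of 7.74% of the 16165 and of 0 of the 30. Over whole regions it was in 9.38% of the 16165 and in 2 of the 30. A match describes letters in a window and is not shown to be the bound site.

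The 10 deposited peak lists, 1 per antibody library, gave no read counts, so the depth behind a region is unknown and a missing region is not shown to be an absence of signal. After overlapping peaks were merged, the FLI1 lists held 29339 to 40590 regions, those of H3K27ac 10219 and 17366, those of H3K9me3 36687 and 21770, and those of H3K27me3 21461 and 16667. The FLI1 lists held a region at the start of NR0B1, NKX2-2 and CCND1, known targets of the fusion, in 4 of 4 libraries each. Here and below a fold is the authors' deposited value of a region over IgG. FLI1 values are listed for replicates 1 and 2 of set A and then of set B, and those of the other marks for replicates 1 and 2. A fold serves only to describe and rank regions within a library, since it depends on that library and its control. A gene was counted for a list when a region lay within 1 kb of its start in GENCODE release 44. For 12 members the start of the MANE Select transcript, the 1 chosen as representative, lay more than 1 kb from that start, by up to 37.8 kb at HOXC6. Counts at MANE Select starts are given beside those at gene starts where they differ.

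**Figure D1:**
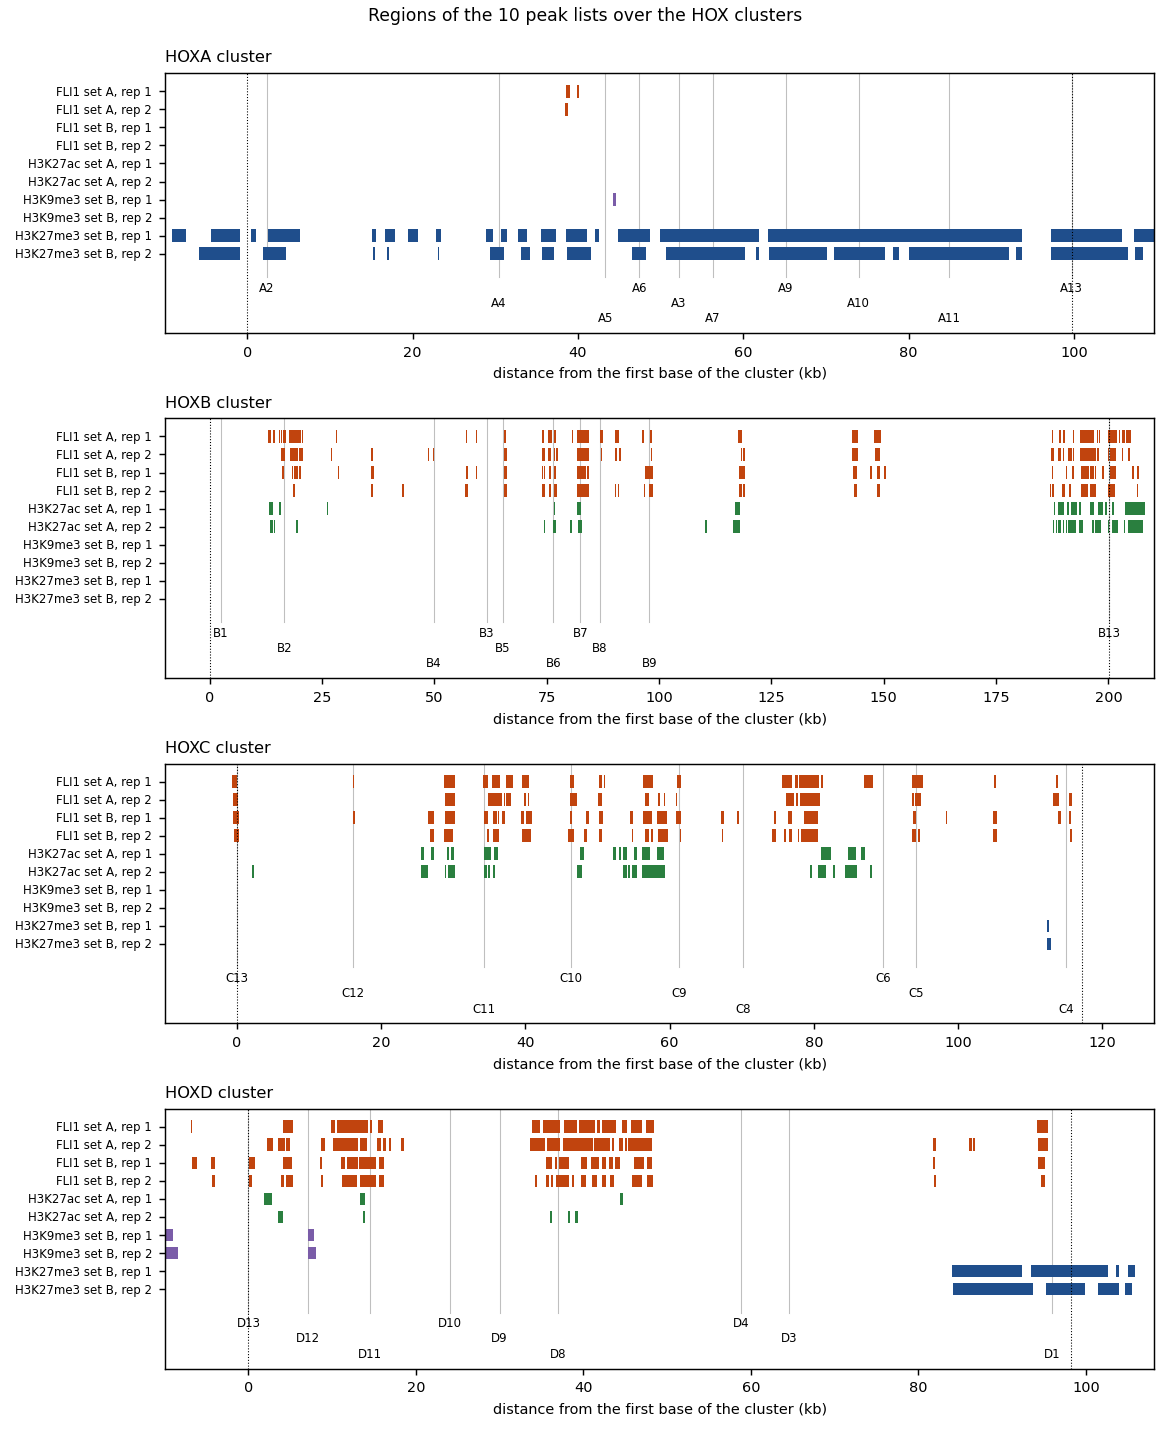
Regions of each peak list (rows) along the 4 HOX clusters, as distance in kb from the first base of the cluster, with 10 kb beyond each end (dotted lines). Grey lines and labels mark MANE Select starts. The H3K27me3 regions fill most of HOXA from HOXA6 to HOXA13 and the HOXD1 end of HOXD. The H3K27ac regions and most FLI1 regions lie in HOXB, HOXC and the rest of HOXD. A few FLI1 regions lie in HOXA and at the HOXD1 end.

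The HOXA cluster stood out by H3K27me3. Between its first and last member base (chr7:27100354-27200091, 99.7 kb), H3K27me3 regions covered 64.6% of bases in replicate 1 and 51.6% in replicate 2, and 49.4% lay in both. Of 30298 bins of 100 kb across the genome, 0.185% in replicate 1 and 0.195% in replicate 2 were covered as much. HOXB (chr17:48528526-48728750, 200.2 kb) had no H3K27me3 region in either replicate. HOXC (chr12:53938831-54056030, 117.2 kb) had 1 small region in each, 0.242% and 0.459% of its bases. HOXD (chr2:176092721-176190907, 98.2 kb) had 13.3% and 12.7% of its bases covered, at the HOXD1 end.

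H3K27me3 lay at the starts of 10 of the 38 genes in both replicates (26.3%), against 9.48% of all protein-coding genes. These were HOXA2, HOXA3, HOXA4, HOXA6, HOXA7, HOXA9, HOXA10, HOXA11 and HOXA13, and HOXD1. They are not independent observations, because a broad region can span several starts: the 11 starts of replicate 1 lay in 8 regions and the 10 of replicate 2 in 7. Per replicate, 11.5% and 9.8% of all genes were marked. The count at MANE Select starts was also 10, against 9.96% of all genes. By body position the 10 genes were 3 of 7 anterior members (groups 1 to 3), 3 of 15 central members (groups 4 to 8) and 4 of 16 posterior members (groups 9 to 13).

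HOXA13, which acts in the distal limb and urogenital tract, had folds of 8.26 and 7.24, the highest of the HOXA starts in each replicate. Its regions were 8.66 and 9.27 kb wide and also held the start of HOTTIP, a noncoding RNA transcribed away from HOXA13. In replicate 1 a region of 30.7 kb (chr7:27163397-27194081, fold 7.52) ran over the starts of HOXA9, a regulator of blood progenitors, HOXA10, which acts in the uterus, and HOXA11, which patterns the forearm. Its width ranked 43 among the 21461 regions of that list. In replicate 2 the same stretch was broken into 5 regions. HOXA9 then had a fold of 6.71, and HOXA10 and HOXA11 shared a region of 12.1 kb with a fold of 5.85.

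The promoter of HOXA13, the HOXA start with the highest folds, is shown with its CpG dinucleotides. This RefSeq promoter (GRCh38.p14, chr7:27200042-27200341, minus strand, from 250 bases before to 50 after the start) held 44 CG, in capitals, and was chosen after the values at HOXA13 were seen.
HOXA13 promoter: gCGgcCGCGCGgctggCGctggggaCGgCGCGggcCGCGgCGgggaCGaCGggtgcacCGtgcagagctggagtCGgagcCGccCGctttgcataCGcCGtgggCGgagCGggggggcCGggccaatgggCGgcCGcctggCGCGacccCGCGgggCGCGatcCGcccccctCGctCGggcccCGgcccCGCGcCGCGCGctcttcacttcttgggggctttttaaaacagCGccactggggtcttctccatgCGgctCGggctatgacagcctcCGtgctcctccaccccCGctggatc
The promoter of HOXD11, a gene with FLI1 in all 4 libraries and no H3K27me3, is given in the same way (chr2:176107030-176107329, plus strand).
HOXD11 promoter: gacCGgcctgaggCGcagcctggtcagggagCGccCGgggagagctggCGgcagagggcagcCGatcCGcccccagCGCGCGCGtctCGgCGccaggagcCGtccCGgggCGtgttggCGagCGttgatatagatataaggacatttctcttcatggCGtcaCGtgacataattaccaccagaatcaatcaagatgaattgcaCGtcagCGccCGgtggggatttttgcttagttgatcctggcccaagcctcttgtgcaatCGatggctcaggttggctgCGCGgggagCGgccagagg
It held 27 CG. The promoters of the 9 HOXA genes with H3K27me3 in both replicates held from 11 CG at HOXA2 to 44 at HOXA13, and those of HOXA2, HOXA3, HOXA9, HOXA10 and HOXA11 held fewer than that of HOXD11. RefSeq promoters matched 20 of the 38 members, with a median of 22.5 CG against 14 over 35116 RefSeq promoters. The matched members were mostly of HOXA and HOXD, and HOXC4 and HOXC5 matched the same sequence, so this median does not describe the family. In the 1001 bases centred on the gene start, the median number of CpG over the 38 members was 57.5, against 58 over all protein-coding genes. By cluster it was 56 in HOXA, 49 in HOXB, 57 in HOXC and 80 in HOXD.

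Among the central and anterior HOXA genes, HOXA7, HOXA6 and HOXA3, a gene of thymus and parathyroid development, had the same fold of 6.88 in replicate 1, since a region of 12.0 kb there spanned the 3 starts, and 6.95 in replicate 2 from a region of 9.56 kb. HOXA4 had folds of 6.05 and 5.07. HOXA2, which patterns the hindbrain and the second pharyngeal arch, had folds of 4.83 and 5.47. HOXA5, a gene of lung development, was the HOXA member whose state differed between replicates: a region lay within 1 kb of its start in replicate 1, with a fold of 4.60, and none did in replicate 2. A stretch of 2.30 kb around the HOXA5 start (chr7:27142932-27145228) was free of H3K27me3 in both replicates. It held an H3K9me3 region of 0.426 kb in replicate 1 (fold 3.83), with none in replicate 2.

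HOXA held 4 further stretches of at least 2 kb without H3K27me3 in either replicate, the widest of 8.78 kb (chr7:27106701-27115484) and of 5.47 kb (chr7:27123789-27129259), and none of these 4 held a member start. No FLI1 or H3K27ac region of any library lay in the 5 stretches.

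FLI1 was found at no HOXA gene start in any of the 4 libraries. The cluster held 2 FLI1 regions in all, both between HOXA4 and HOXA5. The first (chr7:27138765-27139380) had folds of 8.57 and 12.2 in set A and was in neither list of set B. The second (chr7:27140217-27140416) was in set A replicate 1 alone. H3K27me3 regions covered 76.8% and 65.7% of the bases of the first and 100% of the second in each replicate. FLI1 covered 0.658% and 0.401% of HOXA in set A and 0% in both libraries of set B, against 0.900%, 0.962%, 0.705% and 0.596% of the genome in the same order of libraries. No H3K27ac region of either replicate lay in HOXA.

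**Figure D2:**
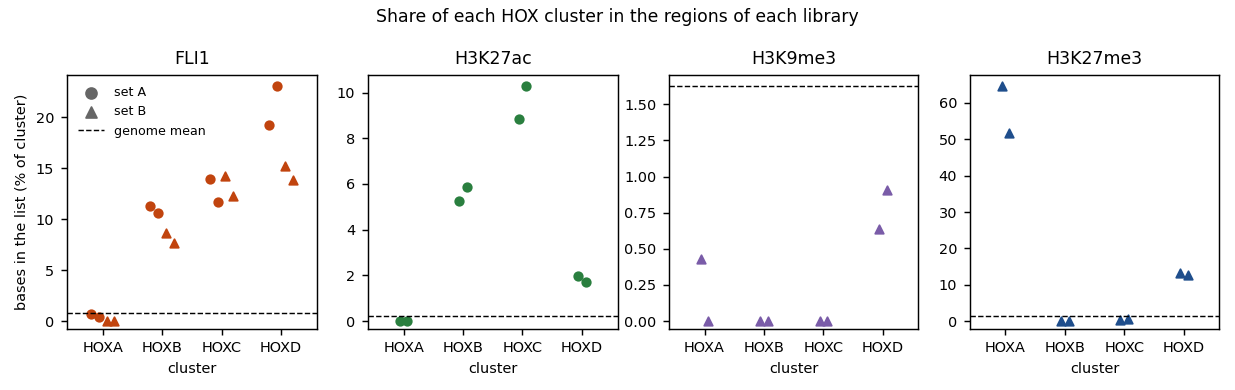
Percent of the bases of each HOX cluster in the regions of each library (points, circles for set A and triangles for set B, replicates left to right), by target, with the mean share of the genome as a dashed line. Axes differ between panels. HOXA is at or below the genome level for FLI1 and H3K27ac and reaches 64.6% and 51.6% for H3K27me3.

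HOXB, HOXC and HOXD showed the other arrangement. FLI1 was at 16 of the 38 starts in all 4 libraries (42.1%), against 33.8% of all protein-coding genes. The 16 were 5 of 10 in HOXB (HOXB3, HOXB5, HOXB6, HOXB9 and HOXB13), 6 of 9 in HOXC (HOXC4, HOXC5, HOXC9, HOXC10, HOXC11 and HOXC13) and 5 of 9 in HOXD (HOXD1, HOXD3, HOXD8, HOXD10 and HOXD11). With HOXA left out, they were 57.1% of 28 genes, a split made with the HOXA result in view. At least 1 library had FLI1 at 23 starts, against 54.1% of all genes. The 16 held 3 of 7 anterior, 5 of 15 central and 8 of 16 posterior members, and the MANE Select starts gave 1, 5 and 7. At MANE Select starts the count was 13 (34.2%), a share near the 35.4% of all genes. There HOXB3, HOXC4, HOXD3 and HOXD10 dropped out and HOXB7 came in. With HOXA left out, the share at MANE Select starts was 46.4% of the 28 genes.

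**Figure D3:**
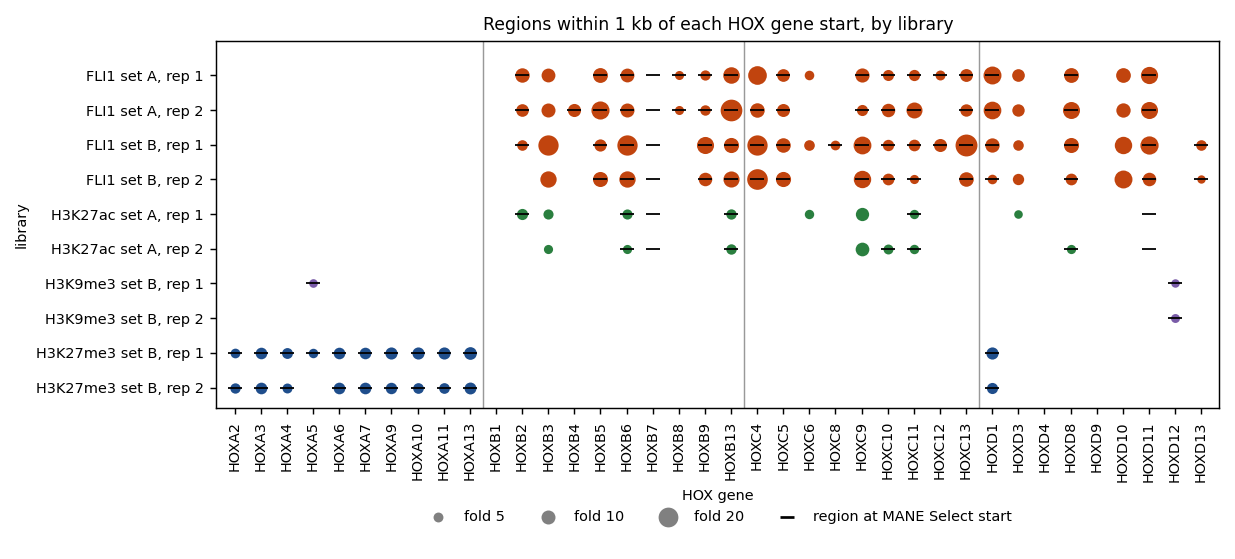
FLI1, H3K27ac, H3K9me3 and H3K27me3 regions within 1 kb of the 38 gene starts, by library. The area of a dot is the deposited fold over IgG, and a black bar marks a region at the MANE Select start. H3K27me3 fills the HOXA columns and HOXD1, and FLI1 is spread over HOXB, HOXC and HOXD.

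Coverage by FLI1 was high in these 3 clusters in each library. In HOXB it was 11.3%, 10.6%, 8.64% and 7.67% of bases, in HOXC 14.0%, 11.7%, 14.2% and 12.3%, and in HOXD 19.3%, 23.0%, 15.2% and 13.8%, with set A before set B. The share of 100-kb bins of the genome covered as much as HOXD was 0.201%, 0.135%, 0.0891% and 0.0792%. Over the 4 clusters 85 FLI1 regions were found in at least 1 library and 30 in all 4 (35.3%, against 29.3% of the 55089 FLI1 regions of the genome). These are spans joined over the libraries, so the regions of different libraries in a span need not lie at 1 site. The widest span, 11624 bases over the starts of HOXD8 and HOXD3, held 7 to 9 regions per library and counts once. The 30 were 13 in HOXB, 11 in HOXC and 6 in HOXD, and 17 of them lay within 1 kb of a gene start. By the MANE Select transcripts of the members, 5 summits were exonic, 4 intronic and 21 outside them.

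In HOXB the FLI1 region at HOXB13, the posterior gene known for its role in the prostate, had folds of 14.0, 24.1, 11.7 and 13.3. Its region (chr17:48728357-48730442) also held 1 CCGGAAGT outside the 200 bases printed above. A second region 3.01 kb from the HOXB13 start (chr17:48722113-48725738) had folds of 14.9, 18.2, 15.9 and 15.6. HOXB5, which acts in the enteric nervous system, had folds of 11.3, 16.8, 7.62 and 11.6. HOXB9, a gene of the thoracic skeleton, had folds of 5.37, 5.55, 14.9 and 9.36. HOXB3 and HOXB6 shared their values of 9.80, 10.0, 21.0 and 13.6, because the annotated start of HOXB3 (chr17, position 48604912) belongs to a long transcript that begins next to HOXB6 (position 48604992). The MANE Select start of HOXB3, 14.7 kb away, had no region of any list.

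The remaining HOXB genes had FLI1 in fewer libraries. HOXB2, a hindbrain gene, had it in each library but set B replicate 2, at 10.7-, 8.18- and 5.76-fold. HOXB4, known for the expansion of blood stem cells, had it in set A replicate 2 alone, with a fold of 8.77. HOXB8 had it in both libraries of set A, at 4.19- and 4.20-fold, and in none of set B. HOXB1, which specifies a hindbrain segment, had no region of any list. HOXB7 had none at its gene start and FLI1 in all 4 libraries at its MANE Select start.

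In HOXC each of the 9 genes had FLI1 at its start in at least 1 library. At HOXC4 the folds were 17.8, 10.7, 21.0 and 21.8, and the region (chr12:54016163-54019670) had the highest mean rank of fold of the 30. It lies at the start of a long HOXC4 transcript, and the MANE Select start of HOXC4, 36.9 kb away, did not have FLI1 in all 4 libraries. HOXC13, a gene of hair and nail formation, had folds of 8.46, 7.85, 24.5 and 10.8. HOXC9, which acts at thoracic levels of the spinal cord, had folds of 10.3, 6.32, 16.2 and 15.5. HOXC5 had folds of 8.29, 8.63, 10.8 and 11.7, and the start of MIR615, a microRNA gene inside HOXC5, had the same region. HOXC10, a gene of lumbar motor neurons, had folds of 6.25, 9.26, 6.59 and 7.03, and HOXC11 had 6.45, 13.1, 6.97 and 4.31. HOXC6 and HOXC12 each had FLI1 in replicate 1 of both sets and in neither replicate 2. The MANE Select start of HOXC6 had no region of any list. HOXC8 had FLI1 in set B replicate 1 alone, with a fold of 4.87.

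**Figure D4:**
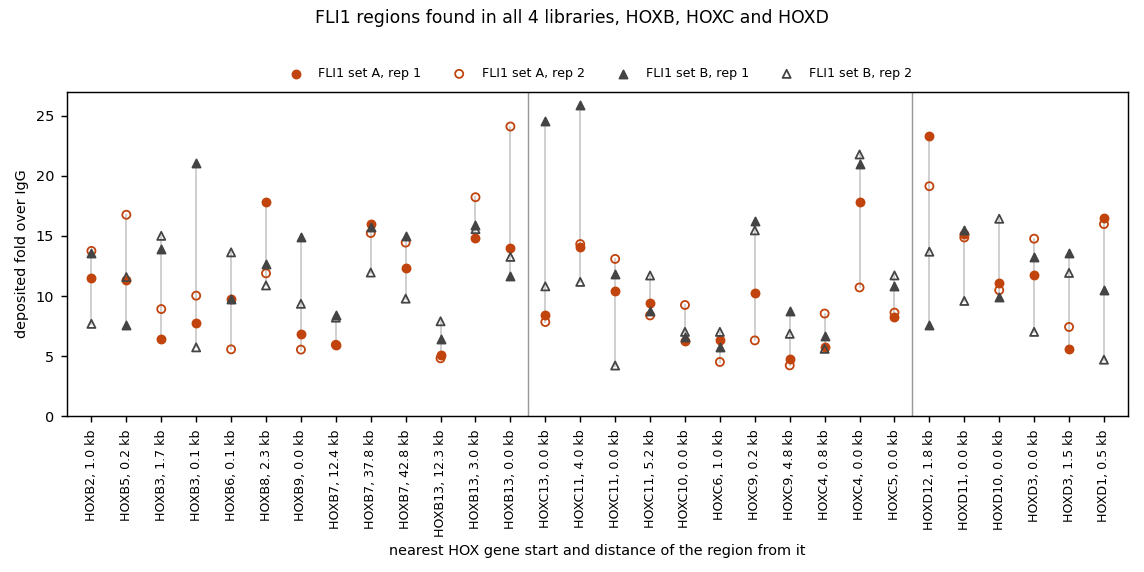
Deposited fold over IgG of the 30 FLI1 regions found in all 4 libraries, by library, in order along each cluster (HOXB, HOXC, HOXD from left to right, parted by vertical lines). The labels give the nearest HOX gene start and the distance of the region from it in kb. The 4 values of a region can lie far apart, as at HOXB13 (11.7 to 24.1) and HOXC13 (7.85 to 24.5).

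HOXD was split along its length. From HOXD13 to a point between HOXD3 and HOXD1, 84.0 kb with the starts of 8 genes held no H3K27me3 region in either replicate. H3K27me3 began at position 176176724 in replicate 1 and 176176819 in replicate 2, 95 bases apart, and covered 92.0% and 88.3% of the 14.1 kb from there to the last base of HOXD1. FLI1 covered 20.9%, 24.9%, 16.8% and 15.6% of the longer stretch. In the shorter stretch it covered 9.55%, 12.2%, 5.66% and 3.64%. H3K27ac covered 2.31% and 1.99% of the longer stretch and none of the shorter.

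In the stretch without H3K27me3, HOXD11, which patterns the forearm together with HOXA11, had FLI1 folds of 15.2, 14.9, 17.0 and 9.34. HOXD10, a lumbar and limb gene, had folds of 11.1, 10.5, 15.5 and 16.4 at its gene start, and HOXD8 had 11.3, 14.8, 11.6 and 7.03. HOXD3 had lower values of 8.20, 7.85, 5.71 and 6.57, at a start 20.7 kb from its MANE Select start. HOXD13, the gene of digit formation, had FLI1 in set B alone, with folds of 5.76 and 3.57, and in neither library of set A. A region 1.78 kb from the HOXD12 start (chr2:176096302-176098017), between HOXD13 and HOXD12, had folds of 23.3, 19.1, 7.60 and 13.7. HOXD4 and HOXD9 had no region of any list at their starts.

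HOXD1 was the member with both FLI1 and H3K27me3. FLI1 was in all 4 libraries, with folds of 16.5, 16.0, 10.5 and 4.72, the last at percentile 7.88 of its list. Joined over the libraries, the region (chr2:176186860-176188205) ended 463 bases before the HOXD1 start. Its span was that of set A replicate 1, and the regions of set B, 798 and 513 bases wide, ended farther from the start. H3K27me3 was at the start with folds of 7.58 and 6.34. Among all protein-coding genes 0.22% had FLI1 in all 4 libraries together with H3K27me3 in at least 1. The 2 replicates placed the mark differently on the joined FLI1 region. In H3K27me3 lay 100% of its bases in replicate 1 and 14.7% in replicate 2, where the FLI1 summit lay outside. The FLI1 regions of set B, the set of the H3K27me3 libraries, lay wholly outside H3K27me3 in replicate 2. The lists come from bulk cells, so whether FLI1 and H3K27me3 were on the same DNA molecules was not tested.

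H3K27ac was at 5 of the 38 starts in both replicates (13.2%), against 11.3% of all protein-coding genes, a share near that of the genome. These were HOXB3, HOXB6, HOXB13, HOXC9 and HOXC11. Each of the 5 also had FLI1 in all 4 libraries. So did 1610 of the 2254 protein-coding genes with H3K27ac in both replicates, which are 8.07% of all genes. The combination therefore does not set the 5 apart. A further 8 members had FLI1 in all 4 libraries and H3K27ac in neither replicate, against 17.7% of all genes: HOXB5, HOXB9, HOXC4, HOXC5, HOXC13, HOXD1, HOXD10 and HOXD11. At MANE Select starts these were 6, against 18.1%. The count with H3K27ac in both replicates was there again 5 (12.5% of all genes), made up of HOXB6, HOXB7, HOXB13, HOXC11 and HOXD11. In at least 1 replicate H3K27ac was at 10 starts, against 23% of all genes. Replicate 1 alone gave 8 starts, against 14.6% of all genes, and replicate 2 alone 7, against 19.6%. A window of 2.5 kb gave 10 in both replicates.

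H3K27ac folds at the starts were 9.0 and 9.59 at HOXC9, 5.44 and 5.53 at HOXB13, 4.45 and 4.55 at HOXC11, and 5.25 and 4.29 at HOXB3 and HOXB6, which share a region (chr17:48604995-48605643). The region at HOXC9 (chr12:53994973-53998153) had a mean rank of fold at percentile 99.7 of the lists. The strongest H3K27ac near a member lay outside the gene, 3.23 kb beyond the HOXB13 start (chr17:48731977-48736731), with folds of 10.8 and 10.4 and a mean percentile of 99.9. Inside the clusters 21 H3K27ac regions were in both replicates, 10 in HOXB, 10 in HOXC and 1 in HOXD, the last 1.82 kb from the HOXD11 gene start. FLI1 of all 4 libraries overlapped 13 of the 21, and FLI1 of at least 1 library overlapped 18. The share of all H3K27ac regions of the genome that overlap FLI1 was not computed. These counts therefore have no background beside them and do not set the clusters apart.

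**Figure D5:**
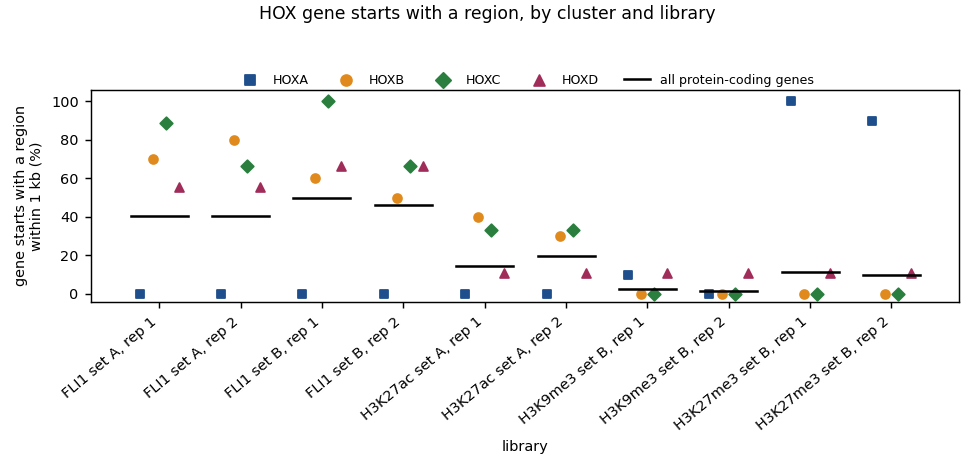
Percent of HOX gene starts with a region within 1 kb, by cluster (symbols) and library, with the share of all protein-coding genes as a black line. HOXA is at 0 for FLI1 and H3K27ac and at 100% and 90% for H3K27me3. HOXB, HOXC and HOXD lie above the line in each FLI1 library.

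H3K9me3 lay at 1 of the 38 starts in both replicates, that of HOXD12, against 1.39% of all protein-coding genes, and at 2 in at least 1 replicate, against 2.74%. The folds there were 3.67 and 4.10, in the lowest 0.984% and 2.89% of regions in their lists. The clusters together had 15.1% and 12.5% of bases in H3K27me3 and 0.204% and 0.173% in H3K9me3. Over the genome H3K27me3 covered 1.62% and 1.04% and H3K9me3 1.97% and 1.28%. Most of the H3K27me3 came from HOXA, with 64.4 of 77.8 kb in replicate 1 and 51.5 of 64.5 kb in replicate 2. Of the 100-kb bins of the genome, 55.7% and 66.9% held no H3K9me3 region. The mean difference was 13.6 percentage points, and the groups of 2 libraries did not overlap (two-sided exact permutation test, p = 0.33, the smallest that 2 against 2 can give, and 0.67 adjusted over 2 tests).

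FLI1 was at 20 and 19 HOX starts in the libraries of set A and at 21 and 17 in those of set B, against 40.7%, 40.4%, 49.7% and 46.3% of all protein-coding genes. The set means differed by 0.5 starts (two-sided exact permutation test, p = 1, adjusted 1, n = 2 and 2), which does not show that the sets are alike: HOXB8 had FLI1 in set A alone and HOXD13 in set B alone. Those regions ranked low by fold in their lists, at percentiles 7.86 and 9.34 for HOXB8 and 19.2 and 1.18 for HOXD13. In 4 members no list had a region at the gene start (HOXB1, HOXB7, HOXD4 and HOXD9), against 32.6% of all protein-coding genes. At MANE Select starts these were 7 members (HOXB1, HOXB3, HOXC6, HOXD3, HOXD4, HOXD9 and HOXD10), against 29.6%.

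The clusters also hold microRNA genes. The miR-196 family, which is known to target HOX transcripts, has genes in 3 clusters, and its mature forms from RefSeq (GRCh38.p14) are shown with the seed, bases 2 to 8, in capitals.
hsa-miR-196a-5p: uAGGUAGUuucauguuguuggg
hsa-miR-196b-5p: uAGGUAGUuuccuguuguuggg
The seed AGGUAGU is the same in both. MIR196B, in HOXA, had H3K27me3 in both replicates with folds of 7.52 and 6.61. MIR196A2, in HOXC, had H3K27ac in both replicates with folds of 5.20 and 4.84 and no FLI1. MIR196A1, in HOXB, had no region of any list at its start, like MIR10A and MIR10B.

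Beside the counts of 4 gene lists that follow, the shares over all protein-coding genes were 33.8% for FLI1 in all 4 libraries, 11.3% for H3K27ac, 1.39% for H3K9me3 and 9.48% for H3K27me3 in both replicates. Among 23 noncoding genes of the clusters, FLI1 was in all 4 libraries at 7 starts, H3K27ac in both replicates at 5 and H3K27me3 in both at 8. No share over noncoding genes was computed, so these counts lack a like background. Some repeat regions already counted for members, such as the H3K27me3 of HOTTIP with HOXA13 and of HAGLR with HOXD1. HOTAIR, a noncoding RNA of HOXC, had FLI1 in 4 libraries, with folds of 10.4, 13.1, 11.9 and 4.23, and H3K27ac in both replicates. The FLI1 region joined over the 4 libraries there also reached HOXC11, but the folds of HOTAIR and HOXC11 were the same only in set A replicate 2. Of 9 genes for HOX cofactors of the PBX, MEIS and PKNOX families, 4 had FLI1 in all 4 libraries (PBX2, PBX3, MEIS1 and MEIS2) and PKNOX2 had H3K27me3 in both replicates. Of 15 related homeobox genes outside the clusters, 10 had H3K27me3 in both replicates, among them EVX1 next to HOXA13, and EN1 had FLI1 in all 4 libraries. EVX2, next to HOXD13, had H3K9me3 in both replicates with folds of 5.09 and 4.75. Of 9 protein-coding genes that flank the clusters, 5 had FLI1 in all 4 libraries and 0 had H3K27me3 in either replicate.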

How the data were processed

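CUT&RUN libraries of TC-32 cells were prepared with a commercial kit and a yeast spike-in, per the labels' protocols. The submitters' processing notes name GRCh38/hg38, cutadapt 4.4, Bowtie2, Picard 2.17.11 and MACS2 2.1.1, without roles. The authors deposited 1 peak list per antibody library, each called against the IgG library with its set and number, per the file names. Deposited values are a ratio (fold over IgG), −log10 p-value, −log10 q-value, a score and, in narrow lists, a summit. The lowest −log10 q-value in the lists was 2.00. The IgG libraries entered only as the authors' controls.

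Within each list, peaks that overlapped on the 22 autosomes and X were joined, and the joined region took the values of its most significant peak. Starts came from GENCODE release 44, with 1 kb on either side and at least 1 shared base. FLI1 regions are the union over the 4 libraries. Counts over members carry no set test. Differences between groups of libraries used exact permutation tests (Python 3.11.15, scipy 1.17.1). The overlap steps were tested on simulated starts, where 100.0% of 400 planted peaks were recovered with 0 false. Any member may be named. Regions in full were FLI1 regions of all 4 libraries, H3K27ac regions of both replicates and H3K27me3-free stretches of at least 2 kb. The members, lists and rules were chosen with earlier results of these data known. Alternatives were other windows, MANE Select starts, a larger overlap, the more significant 50% of each list, either replicate, cluster flanks, leaving out each library, and a replicate block.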

Additional observations from a re-analysis of the deposited data

How the results depend on the processing

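Of 80 alternative values over the results named here, 60 were classed as unchanged, 18 as moved and 2 as reversed. For the set A minus set B difference in FLI1 starts, 0.5 as reported, the unchanged class held values from 0 to 2.5. For that difference the class shows neither an equal size nor a kept direction. In the more significant 50% of each list, HOX starts with FLI1 in all 4 libraries fell from 16 to 10, those with H3K27ac in both replicates from 5 to 2, those with H3K9me3 from 1 to 0, the shared FLI1 regions from 30 to 17, and HOXC coverage by H3K27me3 from 0.242% to 0%. Counted in any library, H3K27ac was at 10 starts and H3K9me3 at 2. A window of 2.5 kb gave 10 starts with H3K27ac and turned the set A minus set B difference in FLI1 starts to -0.5 (exact permutation p = 1). In either replicate H3K27me3 covered 66.8% of HOXA, 0.459% of HOXC and 14.4% of HOXD, and with 10 kb on each side 12.8% of HOXD. Leaving out 1 library at a time gave 16 to 17 starts with FLI1, 7 to 8 with H3K27ac, 1 to 2 with H3K9me3, 10 to 11 with H3K27me3, and 32 to 36 shared FLI1 regions. H3K27me3 coverage was then 51.6% to 64.6% of HOXA, 0.242% to 0.459% of HOXC and 12.7% to 13.3% of HOXD. The set difference in FLI1 starts ranged from -1.5, without set B replicate 2, to 2.5, without set B replicate 1. A library left out leaves fewer lists that must hold a region. With the replicate number as a block, that difference was 0.5 (exact sign-flip permutation p = 1) and the H3K27me3 minus H3K9me3 difference 13.6 percentage points (exact p = 0.5, the smallest that 2 pairs can give). The labels do not say that the numbers pair samples, and the block changed no call. HOXB had 0% H3K27me3 coverage under each alternative run. Peak lists without read counts cannot part a low signal from none, and a threshold set by each library's depth bears on every count.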
